A study of Mus musculus with 4 samples.

Results

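Complement is a plasma defence system of proteins that are mostly made by hepatocytes and that cleave one another in sequence. The classical pathway starts with C1q, which hepatic macrophages produce, the lectin pathway with mannose-binding lectins and ficolins, and the alternative pathway with C3 itself. All of them converge on cleavage of C3 and C5 (mouse gene Hc), which releases the anaphylatoxins C3a and C5a and starts assembly of the membrane attack complex from C5b, C6, C7, C8 and C9. Regulators in plasma and on cell membranes restrain these steps, and the receptors C3aR and C5aR1 carry anaphylatoxin signals into leukocytes and other cells. The data describe 34 complement genes, chosen by gene symbol from the 27027 entries of the expression table. They are the recognition molecules, proteases, C3 and C4, terminal components, regulators and anaphylatoxin receptors named in the text.

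Livers came from male C57BL/6J mice, 9 to 12 weeks old, that had fasted for 10 h before an i.p. injection. Control mice received 0.9% NaCl and the others acetaminophen (APAP) at 300 mg/kg, which causes hepatocyte necrosis. Hepatic RNA was pooled in equal shares within each group, from 6 control mice and 7 APAP mice at each of the time points 24 h and 48 h. Each pool gave 1 library of massive analysis of cDNA ends (MACE), which counts 3′ ends of polyadenylated mRNA. No value therefore has a spread between mice, no test was run, and every interval given is a 95% exact interval for counting error only. Values in groups of 4 are in the order control 24 h, control 48 h, APAP 24 h and APAP 48 h.

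Between 4859661 and 5698778 reads were counted on genes per library. The 10 hepatocyte markers in the table held 9.557 to 11.2% of the reads, and all 10 were detected. Normalized reads are counts divided by a median-of-ratios size factor, which sets the median gene equal across libraries, and a fold is the APAP library over the control library of the same time. Genes were evaluated where the 4 libraries averaged 10 normalized reads or more, which leaves 12113 genes and 33 of the 34 complement genes. C5ar1 is above that minimum only through its reads in the APAP libraries. In bulk tissue, fewer cells of a type and less RNA per cell cannot be told apart.

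Complement mRNA differed widely in read number, from Cfd with 0, 1, 0 and 0 reads to C3 and Vtn with at least 14358 normalized reads in every library. At a fold of at least 2, with counts under 3 reads set to 3, 2 of 33 complement genes were higher and 2 were lower at each time. At 24 h the higher genes were C3ar1 and C5ar1 (5.85% of all 12113 genes were higher) and the lower ones Cfb and C6 (5.68% of all genes were lower). At 48 h C3ar1 and C5ar1 were again higher (5.76% of all genes) and C2 and C8b lower (5.61% of all genes). These counts lie near the background. Within 2-fold at both times were 27 of the 33 genes, a count for which no share over all genes was computed. Between the 2 control pools none of the 33 genes differed by 2-fold (5.2% of all genes did).

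Smaller differences leaned downward. At a fold of at least 1.5, 8 complement genes were lower at 24 h (24.2%, against 14.5% of all genes) and 9 at 48 h (27.3%, against 14.4%). At the same limit 2 were higher at 24 h (14.2% of all genes) and 3 at 48 h (13.6% of all genes). The 26 complement genes that averaged 100 normalized reads or more were set against the 4398 genes at that level. At 2-fold, 0 of them were higher and 1 was lower at 24 h (2.27% and 5.71% of those genes), and 0 were higher and 2 lower at 48 h (1.86% and 6.12%). At 1.5-fold, 7 were lower at 24 h (15.1%) and 9 at 48 h (15.8%), and none was higher at either time (6.62% and 4.93%). Normalized reads of 14 genes were lower in both APAP libraries than in both control libraries (26.3% of all genes), and those of 4 genes, Clu, Cd55, C3ar1 and C5ar1, were higher in both (24.8% of all genes).

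The median log2 fold of the 33 genes was -0.258 at 24 h and -0.135 at 48 h, against 0.007 and -0.015 over all genes. Folds lay below 1 for 28 of 33 genes (84.8%, against 49.6% of all genes) at 24 h and for 20 (60.6%, against 51.3%) at 48 h. This split depends on the scaling. With library totals 21 (63.6%, against 34.8% of all genes) and 11 (33.3%, against 30.3%) lay below 1, and the median of all genes moved up by 0.187 and 0.266 on the log2 scale. With size factors from hepatocyte markers 14 (42.4%, against 28.4%) and 16 (48.5%, against 39.9%) did, and the median of all genes moved up by 0.286 and 0.139. A scaling moves every gene alike, so the log2 difference between the complement median and that of all genes, -0.265 at 24 h and -0.12 at 48 h, is the same under each. It depends on the control pool at 48 h, where it was 0.066 against the control pool of 24 h and 0.006 against the sum of both pools, with 15 and 17 of 33 genes below 1. At 24 h it was -0.367 and -0.286 against the other pool and the sum. Under every scaling, low-count setting and control pool tried, 9 genes had folds below 1 at both times (C1ra, C1s1, C2, C6, C8b, C8g, Masp2, Mbl1 and Mbl2; 14.7% of all genes did), and 4 had folds above 1 (C3ar1, C5ar1, Cd55 and Clu; 24.5% of all genes did).

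**Figure D1:**
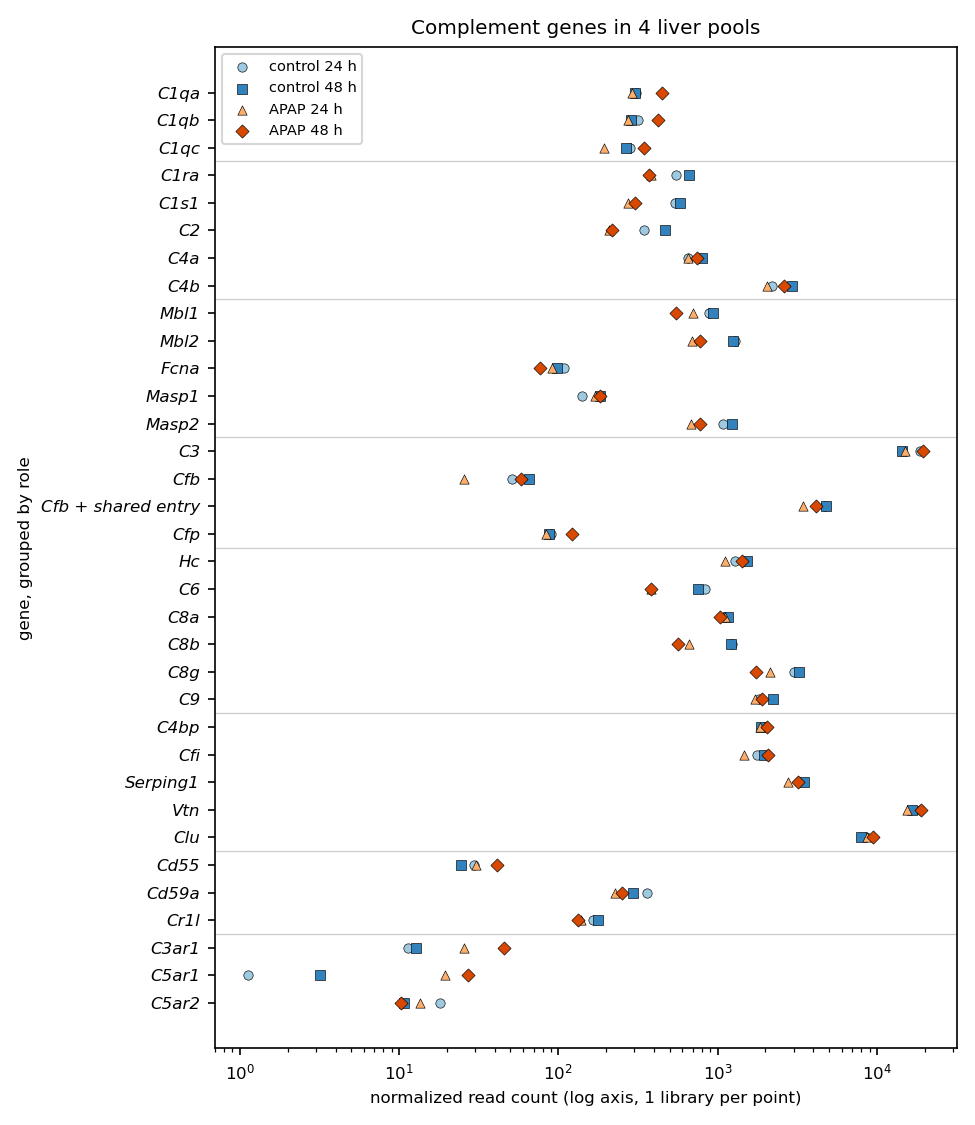
Normalized read count (log axis) of the 33 evaluated complement genes in each of the 4 libraries, 1 point per library, with genes grouped by role from C1q at the top to the receptors at the bottom. C3 and Vtn lie at 14358 or above in every library and the 3 receptors below 50, and C1s1, C6 and C8b show both APAP points to the left of both control points. The extra line adds to Cfb the reads of the entry it shares with Gm20547.

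C1q is the recognition molecule of the classical pathway, a complex of 3 chains whose genes lie next to each other on chromosome 4 (GRCm38, chr4:136880129-136886187, chr4:136889804-136893065 and chr4:136895917-136898803, all on the minus strand). C1qa had 308, 303, 289 and 450.0 normalized reads, C1qb 316, 287, 273 and 423, and C1qc 283, 265, 195 and 347. The APAP library at 48 h was the highest of the 4 for each chain, and the APAP library at 24 h was the lowest for each. At 24 h the fold was 0.937 (interval 0.796 to 1.10) for C1qa, 0.865 (interval 0.735 to 1.02) for C1qb and 0.689 (interval 0.573 to 0.828) for C1qc. At 48 h it was 1.48 (interval 1.28 to 1.72), 1.47 (interval 1.26 to 1.72) and 1.31 (interval 1.11 to 1.54). The fold at 48 h exceeded the fold at 24 h by a factor of 1.58 (interval 1.27 to 1.98) for C1qa, 1.70 (interval 1.36 to 2.13) for C1qb and 1.90 (interval 1.48 to 2.44) for C1qc. At 48 h all 3 folds were above 1 under every setting tried, whereas at 24 h those of C1qa and C1qb crossed 1 with the scaling.

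Markers of macrophages did not all follow the C1q chains. The 6 markers of Kupffer cells, the resident liver macrophages, summed to 659, 646, 696 and 897 normalized reads, a fold of 1.06 at 24 h (interval 0.948 to 1.18) and 1.39 at 48 h (interval 1.25 to 1.54). Of these 6 markers 1, Marco, was at least 2-fold higher at both times. Clec4f, a lectin specific to Kupffer cells, had folds of 0.534 (interval 0.441 to 0.645) at 24 h and 0.985 (interval 0.831 to 1.17) at 48 h. Without Marco, a choice made after its values were seen, the sums were 591, 607, 487 and 739, with folds of 0.824 (interval 0.731 to 0.930) and 1.22 (interval 1.09 to 1.36). The 11 monocyte and macrophage markers summed to 432, 481, 822 and 1527, and none was at 0 in every library. At least 2-fold higher were 6 of 11 at 24 h and 9 of 11 at 48 h (5.85% and 5.76% of all genes). Of these, Ccr2, Ly6c2, Trem2 and Gpnmb had at most 7 reads in either control library. They pass the minimum mean only through their APAP reads, so their calls were partly set by that filter. The part of macrophages in the C1q values was not tested.

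The proteases C1r and C1s, which C1q activates, were lower in both APAP libraries. C1ra had 551, 662, 383 and 372 normalized reads, with folds of 0.695 (interval 0.610 to 0.792) at 24 h and 0.563 (interval 0.495 to 0.639) at 48 h. C1s1 had 541, 582, 276 and 302, with folds of 0.510 (interval 0.442 to 0.589) and 0.519 (interval 0.450 to 0.596). For neither gene did the control and APAP libraries overlap. The last 300 bases of C1s1 transcripts are 98.3% identical to the copy C1s2, which held at most 18 reads in a library. With the reads of both summed, the folds were 0.502 (interval 0.435 to 0.578) and 0.523 (interval 0.456 to 0.601).

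C2 supplies the protease of the classical and lectin C3 convertase. It had 347, 468, 208 and 218 normalized reads, lower in both APAP libraries, with folds of 0.599 (interval 0.504 to 0.712) at 24 h and 0.465 (interval 0.395 to 0.547) at 48 h. The control pools themselves differed by 1.35 (interval 1.16 to 1.57), 48 h over 24 h, and with the control pool of the other time the fold at 48 h was 0.627. C4, which C1s and MASP-2 cleave, did not share this pattern. C4b had 2195, 2913, 2029.7 and 2611 and C4a, the gene of sex-limited protein, 657, 798, 655 and 742 normalized reads, and each was higher at 48 h than at 24 h in control and APAP livers alike. Their 3′ ends are 98.3% identical, so reads may have been exchanged. Summed, they gave folds of 0.941 (interval 0.893 to 0.992) and 0.903 (interval 0.862 to 0.947), while the control pools differed by 1.30 (interval 1.24 to 1.37).

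In the lectin pathway the mannose-binding lectins and the protease MASP-2 were lower and MASP-1 was not. Mbl1 had 886, 934, 699 and 550.4 normalized reads, with folds of 0.790 (interval 0.715 to 0.872) at 24 h and 0.589 (interval 0.530 to 0.655) at 48 h. Mbl2 had 1296, 1245, 689.9 and 774, with folds of 0.532 (interval 0.486 to 0.583) and 0.621 (interval 0.568 to 0.680). The 2 lectins differed in timing, since the ratio of the fold at 48 h to that at 24 h was 0.746 (interval 0.645 to 0.864) for Mbl1 and 1.17 (interval 1.03 to 1.33) for Mbl2. Masp2 had 1082, 1224, 684 and 778 normalized reads, with folds of 0.632 (interval 0.575 to 0.695) and 0.636 (interval 0.581 to 0.696), and its control and APAP libraries did not overlap. Masp1 had 141, 183, 171 and 184, with folds of 1.21 (interval 0.966 to 1.53) and 1.002 (interval 0.812 to 1.24), and overlapped. Ficolin A (Fcna) had 108, 98.6, 92.0 and 76.9, and its intervals held 1 at both times (0.640 to 1.13 and 0.572 to 1.06).

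C3, the centre of the cascade, was the most abundant complement mRNA by reads together with vitronectin. It had 18604, 14358, 14972 and 19556 normalized reads. The APAP library at 48 h and the control library at 24 h were high, and the other 2 were low. The fold was 0.805 (interval 0.788 to 0.822) at 24 h and 1.36 (interval 1.33 to 1.39) at 48 h, and the ratio between them 1.69 (interval 1.64 to 1.75). Part of this rests on the controls, which differed by 0.772 (interval 0.754 to 0.790), 48 h over 24 h. Between the APAP libraries C3 was 1.31 times as high at 48 h as at 24 h. Against the control pool of the other time the fold at 24 h turned to 1.04. The control pool at 24 h was also high in acute-phase mRNA, with a median log2 difference of -0.738 over the 13 listed genes, 48 h over 24 h. The part of this difference in the C3 values was not tested.

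Factor B is the protease of the alternative C3 convertase, and its reads were mostly in an entry of another name. The row labelled Cfb held only 45, 61, 30 and 62 reads, a fold of 0.499 (interval 0.304 to 0.810) at 24 h and 0.889 (interval 0.614 to 1.29) at 48 h. A second entry, named Gm20547, carries the identifiers of both Cfb and Gm20547, a gene model on the same strand that overlaps Cfb (chr17:34856374-34862518) and C2 (chr17:34862604-34898265). It held 4094, 4423, 3993 and 4380 reads, which is 98.6 to 99.3% of the sum of both entries. With this sum Cfb had 4705, 4808, 3426 and 4165 normalized reads, and the folds were 0.728 (interval 0.697 to 0.761) and 0.866 (interval 0.831 to 0.903). The call of Cfb as 2-fold lower at 24 h thus holds for the residual row and not for the sum, which lay below both controls at both times. The C2 entry also names Gm20547, and its 3′ end has a stretch of 109 bases in common with that model.

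Properdin (Cfp), a myeloid product that stabilises the alternative convertase, had 89.8, 87.9, 83.5 and 122 normalized reads. Its fold was 0.929 (interval 0.684 to 1.27) at 24 h and 1.39 (interval 1.04 to 1.85) at 48 h, and only the APAP library at 48 h stood above the others. Factor D (Cfd, adipsin), made chiefly by adipocytes, had 1 read in all 4 libraries together. The adipocyte markers Plin1 and Lep were also at 3 reads or fewer in every library.

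**Figure D2:**
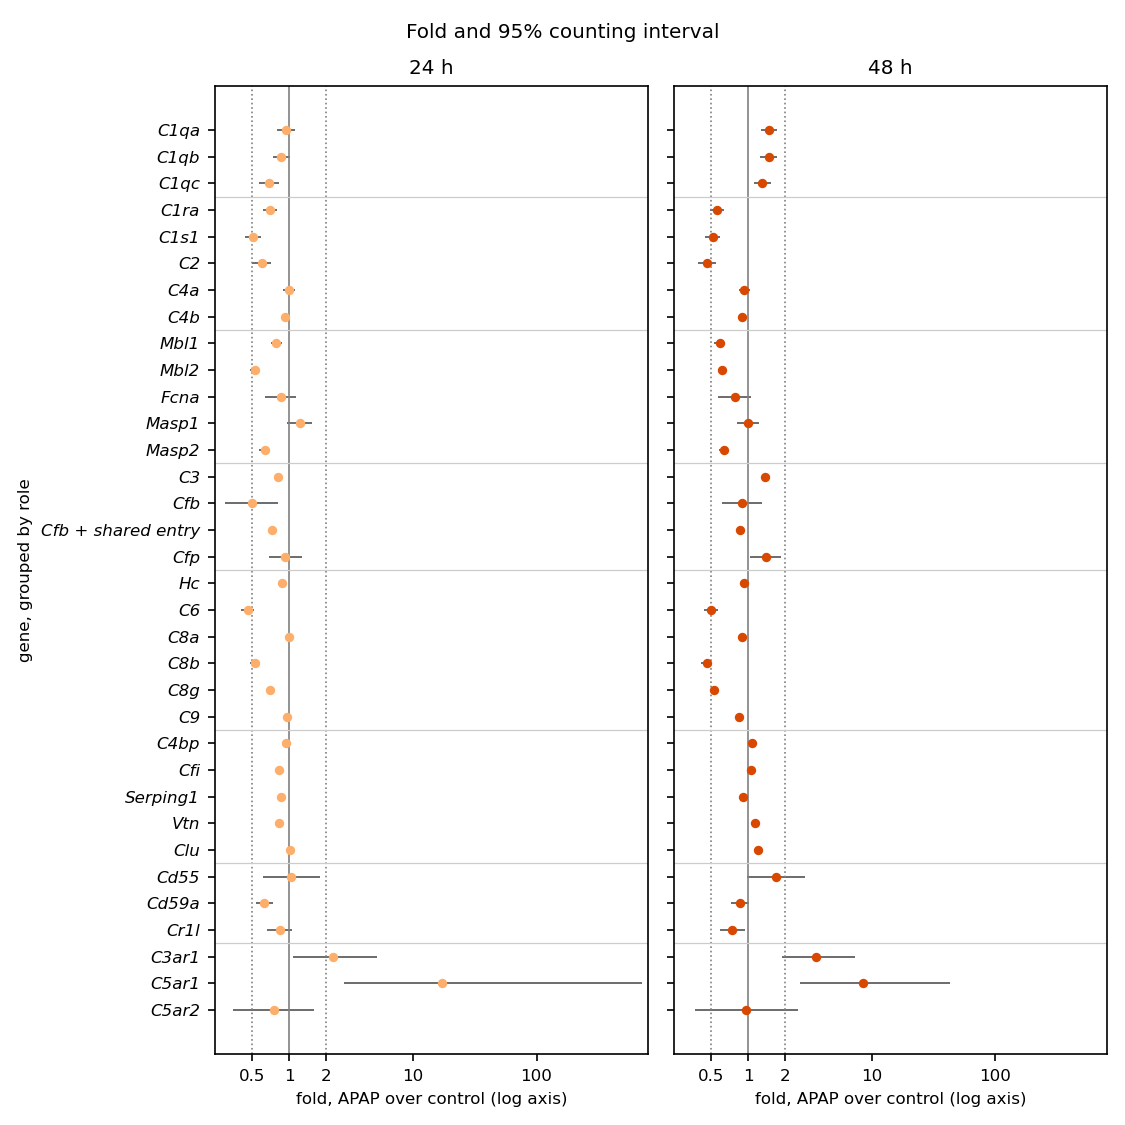
Fold of APAP over control (log axis) for the evaluated complement genes at 24 h (left) and 48 h (right), with 95% counting intervals as bars and dotted lines at 0.5 and 2. Most points lie between the dotted lines, C1ra, C1s1, C2, Masp2, the mannose-binding lectins, C6, C8b and C8g sit left of 1 in both panels, and C3ar1 and C5ar1 lie to the right, with the wide intervals of low counts.

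Among the terminal components, C6, C8b and C8g were lower after APAP while C8a, C9 and Hc differed little. C6, the first protein to join C5b, had 831, 757, 384 and 381 normalized reads. The 2 APAP libraries were nearly equal, both below the controls, with folds of 0.462 (interval 0.410 to 0.520) at 24 h and 0.503 (interval 0.444 to 0.569) at 48 h. C9, which forms the ring of the pore, had 1811, 2230.2, 1729.9 and 1894, with folds of 0.955 (interval 0.894 to 1.02) and 0.849 (interval 0.798 to 0.903). Hc, the gene of C5, had 1279, 1532, 1118 and 1417, with folds of 0.874 (interval 0.807 to 0.948) and 0.925 (interval 0.860 to 0.995). The folds of C8a, C9 and Hc crossed 1 with the scaling at both times.

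C8 is a heterotrimer of an alpha, a beta and a gamma chain, and its 3 mRNAs parted. C8a had 1119.8, 1163, 1116 and 1044 normalized reads, C8b 1234, 1219, 658 and 564, and C8g 3036, 3255, 2138 and 1737. For C8b and C8g both APAP libraries were well below both controls, whereas all 4 libraries of C8a lay close together. The folds were 0.996 (interval 0.917 to 1.08) and 0.897 (interval 0.824 to 0.976) for C8a, 0.533 (interval 0.485 to 0.585) and 0.463 (interval 0.419 to 0.511) for C8b, and 0.704 (interval 0.666 to 0.744) and 0.534 (interval 0.503 to 0.566) for C8g. The ratio of C8b to C8a reads within a library, which needs no scaling, was 1.10, 1.05, 0.589 and 0.541. It changed by a factor of 0.535 (interval 0.472 to 0.607) at 24 h and 0.516 (interval 0.453 to 0.589) at 48 h, and between the control pools by 0.951 (interval 0.842 to 1.07). The ratio of C8g to C8a was 2.71, 2.80, 1.92 and 1.67.

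C8b (plus strand, chr4:104766317-104804548) and C8a (minus strand, chr4:104815679-104876398) are neighbours whose 3′ ends face each other across 11130 bases with no annotated gene between. C8g lies on chromosome 2 (chr2:25498651-25501719). The 250 bases before the RefSeq start of C8b (chr4:104766067-104766316, plus strand, GRCm38.p6) and C8a (chr4:104876399-104876648, minus strand) are shown because these neighbours encode subunits of one complex and yet differed. Capitals mark matches, on either strand, to the letters TTCNNNGAA (STAT) or TTGCNNAA (C/EBP) or to a consensus of NF-kB.
C8b: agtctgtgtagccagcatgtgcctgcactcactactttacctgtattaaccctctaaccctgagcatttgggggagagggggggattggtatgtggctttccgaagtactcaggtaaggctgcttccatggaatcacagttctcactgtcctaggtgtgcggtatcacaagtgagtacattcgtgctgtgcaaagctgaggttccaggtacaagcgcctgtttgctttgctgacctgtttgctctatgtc
C8a: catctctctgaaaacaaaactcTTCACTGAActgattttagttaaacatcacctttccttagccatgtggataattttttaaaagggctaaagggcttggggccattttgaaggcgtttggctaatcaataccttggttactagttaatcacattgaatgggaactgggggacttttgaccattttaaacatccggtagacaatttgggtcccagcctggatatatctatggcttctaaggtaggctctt
C8a holds 1 match, to the STAT letters, 228 to 220 bases before the start, and C8b holds none.

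Promoter windows of 300 bases, 28 in all, were found for 25 of the 34 genes. The complement genes were counted per gene, over any of its windows, and the background per window, so the shares differ in unit. The STAT letters occurred in 4 of 25 (8.29% of all 32817 RefSeq promoter windows hold them), the NF-kB consensus in 6 of 25 (20.7%) and the C/EBP letters in 5 of 25 (10.8%). The STAT matches were in C1ra, C8a, Masp2 and Vtn, with folds at 24 h of 0.695, 0.996, 0.632 and 0.823. C1s1, C3 and C5ar2 had matches to both the NF-kB consensus and the C/EBP letters in a window, with folds at 24 h of 0.510, 0.805 and 0.749.

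Other pairs of partner genes, picked for this comparison with their values known, also shifted against each other. Masp2 over Masp1 was 7.68, 6.68, 3.995 and 4.24, a change of 0.520 (interval 0.405 to 0.668) at 24 h and 0.634 (interval 0.504 to 0.798) at 48 h. C6 over C9 was 0.459, 0.339, 0.222 and 0.201, a change of 0.484 (interval 0.422 to 0.555) and 0.592 (interval 0.515 to 0.680), with 0.740 (interval 0.653 to 0.838) between the control pools. Mbl2 over Mbl1 was 1.46, 1.33, 0.987 and 1.41, a change of 0.674 (interval 0.589 to 0.772) at 24 h and 1.05 (interval 0.917 to 1.21) at 48 h. In contrast, C1qb over C1qa was 1.03, 0.947, 0.947 and 0.940, and each of its intervals held 1. Of the 12 pairs computed, the interval left out 1 for 9 at 24 h, for 6 at 48 h and for 1 between the control pools. Several pairs share a gene, and no share over other pairs of genes was computed. These counts therefore have no background and describe the chosen pairs only.

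**Figure D3:**
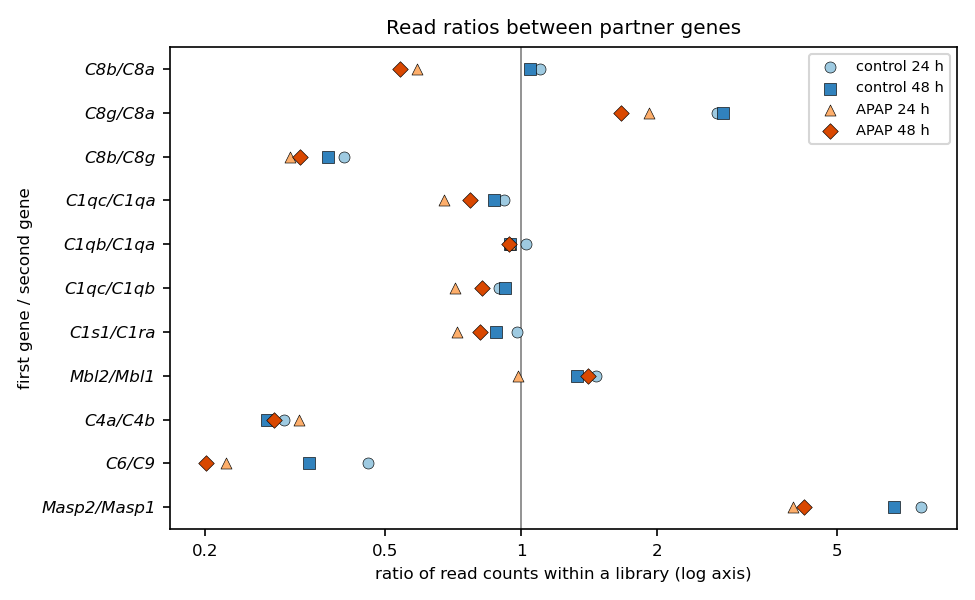
Ratio of read counts of 2 complement genes within each library (log axis) for 11 pairs, 1 point per library, with a line at 1. For C8b/C8a, C8g/C8a, C6/C9 and Masp2/Masp1 both APAP points lie left of both control points, and for C1qb/C1qa the 4 points lie between 0.940 and 1.03.

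The plasma regulators were abundant and differed by less than 1.5-fold at both times. Vitronectin (Vtn), which keeps terminal complexes out of membranes, had 18699.9, 16591, 15386 and 18999 normalized reads, with folds of 0.823 (interval 0.805 to 0.840) at 24 h and 1.15 (interval 1.12 to 1.17) at 48 h. Like C3, it was low in the control pool at 48 h relative to that at 24 h (0.887 (interval 0.868 to 0.907)). Clusterin (Clu), of similar function, had 8518, 7924, 8636 and 9497, with folds of 1.01 (interval 0.984 to 1.04) and 1.20 (interval 1.16 to 1.24), and both APAP libraries were above both controls. Factor I (Cfi), which cleaves C3b and C4b, had 1767, 1952, 1466 and 2083 and a fold of 0.830 (interval 0.774 to 0.889) at 24 h and 1.07 (interval 1.002 to 1.14) at 48 h. C4bp, its cofactor, had 1955, 1879.6, 1858 and 2031, with folds of 0.95 (interval 0.891 to 1.01) and 1.08 (interval 1.01 to 1.15). C1 inhibitor (Serping1) had 3247, 3499.6, 2775 and 3187 and was lower in both APAP libraries, at 0.855 (interval 0.812 to 0.899) and 0.911 (interval 0.868 to 0.956), although these folds crossed 1 with the scaling.

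Of the membrane regulators, Cd59a, which blocks insertion of C9, had 360.4, 293, 227 and 253 normalized reads. Both APAP libraries were below both controls, with folds of 0.631 (interval 0.534 to 0.745) at 24 h and 0.865 (interval 0.728 to 1.03) at 48 h, and the control pools differed by 0.812 (interval 0.688 to 0.958). Cr1l (Crry), the rodent cofactor for C3b cleavage, had 166, 178, 139 and 133, with folds of 0.836 (interval 0.665 to 1.05) and 0.748 (interval 0.594 to 0.942). The 3′ end of Cr1l is 99.0% identical to Crry-ps, which held 12 to 21 reads. Cd55, which dissociates C3 convertases, had 26, 23, 36 and 44 reads, and its intervals held 1 at both times (0.609 to 1.79 and 0.989 to 2.90).

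C3ar1 and C5ar1, the receptors of C3a and C5a, were the 2 complement genes at least 2-fold higher at both times. C5ar1 had 1, 3, 23 and 29 reads, or 0.206, 0.578, 4.04 and 5.87 RPM (reads scaled to the library total). The 2 APAP libraries did not overlap with the controls. The ratio of normalized reads was 17.2 (interval 2.80 to 709.8) at 24 h and 8.45 (interval 2.62 to 43.4) at 48 h, and the single control read at 24 h sets the width of the interval. With that count set to the floor of 3 reads the ratio at 24 h was 5.74, and with a floor of 10 reads it was 1.72. C5ar1 was chosen by the study from these libraries, so its direction here is not independent evidence. The study also measured C5ar1 by real-time PCR in the individual RNA samples behind these pools and reported induction after APAP. Its in situ hybridization, with C5aR1-deficient livers as a control, reported C5ar1 mRNA in hepatocytes after APAP.

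C3ar1 had 10, 12, 30 and 49 reads, and again both APAP libraries were above both controls. The fold was 2.25 (interval 1.07 to 5.15) at 24 h and 3.57 (interval 1.87 to 7.38) at 48 h. Against the control pool of the other time the fold at 24 h was 1.99. C5ar2, the second C5a receptor, had 16, 10, 16 and 11 reads and overlapped between control and APAP, with folds of 0.749 (interval 0.351 to 1.60) and 0.962 (interval 0.371 to 2.53). At this depth a difference in C5ar2 within those intervals was not detectable. The ratio of C5ar1 to C5ar2 reads was 0.0625, 0.300, 1.44 and 2.64, a change of 23.0 (interval 2.85 to 1005) at 24 h and 8.79 (interval 1.74 to 56.3) at 48 h. No floor was applied to these ratios, and that of the control at 24 h rests on 1 read of C5ar1, so the size of the change at 24 h is not well set. The 3′ end of C5ar2 holds a stretch that matches transcripts of 1035 other genes at 90% identity or more, so its reads are uncertain.

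**Figure D4:**
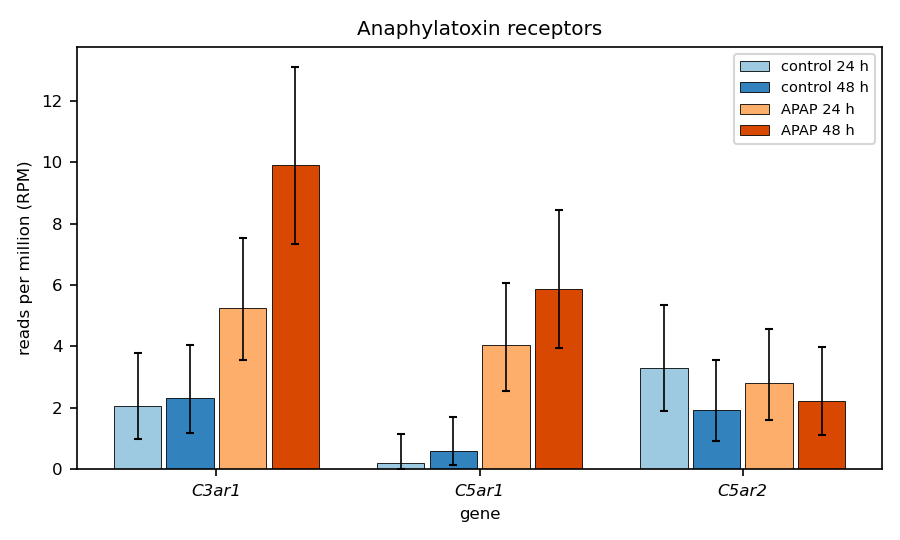
Reads scaled to the library total (RPM) of C3ar1, C5ar1 and C5ar2 in the 4 libraries as bars from 0, with 95% exact Poisson intervals as error bars. C3ar1 is at 2.06 and 2.31 RPM in the controls and 5.26 and 9.92 after APAP, C5ar1 at 0.206 and 0.578 and then 4.04 and 5.87, and the C5ar2 bars overlap in their intervals.

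C5ar2 (chr7:16234585-16244154) and C5ar1 (chr7:16246743-16259540) lie on the minus strand of chromosome 7, 2588 bases apart. The 250 bases before the RefSeq starts of C5ar1 (chr7:16259339-16259588), C5ar2 (chr7:16244155-16244404) and C3ar1 (chr6:122856158-122856407), all on the minus strand of GRCm38.p6, are shown because C5ar1 and C3ar1 had the largest folds of the list and the neighbouring C5ar2 did not. Capitals mark the same motifs as above.
C5ar1: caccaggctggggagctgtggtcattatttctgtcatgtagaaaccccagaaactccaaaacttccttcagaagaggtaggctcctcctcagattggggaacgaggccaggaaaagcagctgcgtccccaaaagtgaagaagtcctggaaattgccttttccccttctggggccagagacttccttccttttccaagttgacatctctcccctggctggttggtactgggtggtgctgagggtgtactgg
C5ar2: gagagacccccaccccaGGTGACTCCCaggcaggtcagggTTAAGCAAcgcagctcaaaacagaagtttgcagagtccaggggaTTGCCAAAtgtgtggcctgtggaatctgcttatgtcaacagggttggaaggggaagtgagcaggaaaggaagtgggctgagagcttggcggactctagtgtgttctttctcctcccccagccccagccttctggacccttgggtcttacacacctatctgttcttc
C3ar1: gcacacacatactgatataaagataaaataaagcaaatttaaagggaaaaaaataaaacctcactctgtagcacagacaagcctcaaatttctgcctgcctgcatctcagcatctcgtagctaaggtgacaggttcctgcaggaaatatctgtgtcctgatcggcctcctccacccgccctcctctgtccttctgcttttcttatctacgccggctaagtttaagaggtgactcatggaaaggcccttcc
C5ar2 holds 1 match to the NF-kB consensus and 2 to the C/EBP letters, and the windows of C5ar1 and C3ar1 hold none. A GENCODE transcript of C5ar1 starts within the window shown. C5ar2 has a further RefSeq start, whose window holds no match and is not shown.

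Summed markers of monocytes and macrophages and of neutrophils were higher in both APAP libraries, as C3ar1 and C5ar1 were, and those of lymphocytes were not. The 11 monocyte and macrophage markers gave a summed fold of 1.90 (interval 1.69 to 2.15) at 24 h and 3.17 (interval 2.86 to 3.53) at 48 h. Not all of them rose, since Csf1r was at 0.995 and 0.936 and Adgre1 at 0.793 and 1.14, with intervals that held 1. The 10 neutrophil markers in the table summed to 18.2, 20.4, 221 and 172 normalized reads, mostly from S100a8 and S100a9, while Camp, Ngp, Ltf and Elane were at 3 reads or fewer in every library. The 6 lymphocyte markers summed to 28.4, 28.9, 23.0 and 24.4, with folds of 0.809 (interval 0.452 to 1.454) and 0.842 (interval 0.472 to 1.499). Only 1 of these 6 was evaluated, and 4 were at 3 reads or fewer in every library. A difference in lymphocyte markers within those intervals was not detectable. The part of these cells in the receptor values was not tested. Nor was that of hepatocytes, in which the study's in situ hybridization reported C5ar1 mRNA after APAP.

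From 24 h to 48 h the complement genes moved in different directions. The fold at 48 h exceeded that at 24 h, with an interval above 1, for 10 genes (C1qa, C1qb, C1qc, Mbl2, C3, C4bp, Cfi, Vtn, Clu and Cd59a), or 30.3%, against 8.85% of all genes. It was below, with an interval under 1, for 6 (C1ra, C2, Mbl1, C8b, C8g and C9), or 18.2%, against 11% of all genes. Intervals leave out 1 more readily at high counts, and all 16 genes averaged 100 normalized reads or more. Among genes at that level the shares were 38.5% above and 23.1% below for the 26 complement genes, and 14.9% and 19.4% for all 4398. Among these 26 the ratio of C1qc was the highest and that of Mbl1 the lowest. Where the controls differed as well, the ratio includes that difference. For C3, Vtn, Clu and Cd59a the control pool at 48 h was below that at 24 h, and for C1ra, C2, C8g, C9 and Cfi it was above. Between the APAP libraries, 48 h over 24 h, C9 was at 1.09 (interval 1.03 to 1.17), C2 at 1.05 (interval 0.871 to 1.26) and C1ra at 0.971 (interval 0.846 to 1.11), so their lower ratio of folds rests on the control pools. Cfi was at 1.42 and Cd59a at 1.11 (interval 0.936 to 1.32). For C8b, C8g and Mbl1 the APAP library at 48 h was itself lower than that at 24 h, at 0.858, 0.813 and 0.787 times its level. For the 3 C1q chains it was 1.56, 1.55 and 1.78 times as high.

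**Figure D5:**
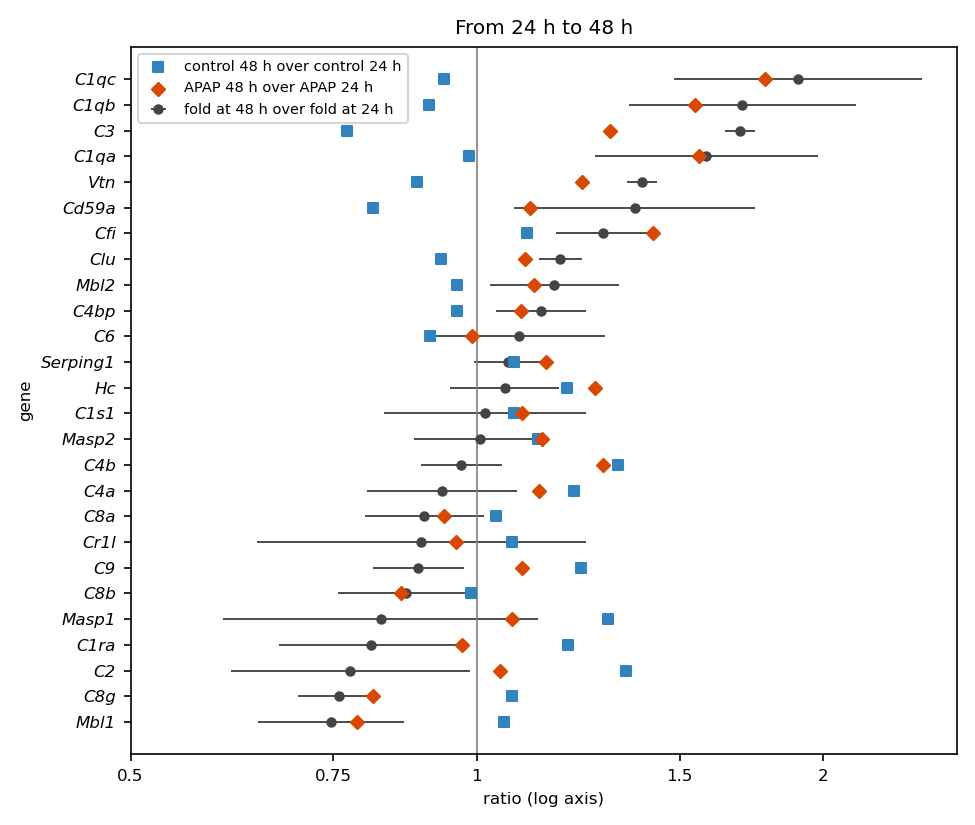
Change from 24 h to 48 h of the 26 complement genes that averaged 100 normalized reads or more (ratio on a log axis), sorted by the ratio of folds. Circles with 95% counting intervals give the fold at 48 h over the fold at 24 h, squares the control pools and diamonds the APAP pools. C1q chains and C3 lie at the top and Mbl1, C8g and C2 at the bottom.

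As a wider set, 28 other genes of the pathway were listed, of which 27 were in the table and 21 were evaluated. At least 2-fold higher were 2 at 24 h and 2 at 48 h (5.85% and 5.76% of all genes), and lower were 3 and 1 (5.68% and 5.61% of all genes). Cd93, a membrane glycoprotein of myeloid and endothelial cells once described as a C1q receptor, had folds of 2.79 (interval 1.92 to 4.15) at 24 h and 4.18 (interval 2.84 to 6.33) at 48 h. Itgb2, the beta chain of complement receptors 3 and 4, had 2.02 (interval 0.949 to 4.68) and 2.79 (interval 1.56 to 5.24). Susd4, a membrane inhibitor of complement, was lower at both times, at 0.419 (interval 0.292 to 0.594) and 0.301 (interval 0.207 to 0.431). C1s2 (0.291 (interval 0.103 to 0.731)) and the collectin Colec11 (0.495 (interval 0.362 to 0.673)) were lower at 24 h.

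Other liver secretory genes give a scale for these values. The median log2 fold over 18 coagulation factors was -0.317 at 24 h. It was -0.219 at 48 h. Of the 18, the 3 fibrinogen chains, Fga, Fgb and Fgg, were at least 2-fold higher at 24 h (5.85% of all genes were). F7, at 0.471, was at least 2-fold lower (5.68% of all genes were), and none was called at 48 h. The 13 acute-phase genes had medians of -0.156 and 0.634. The 10 hepatocyte markers had medians of -0.333 and -0.066, against -0.258 and -0.135 for complement. Differences between these lists were not tested. Of the remaining marker lists, the 7 endothelial and 8 stellate cell markers had medians of 0.083 and 0.492 at 24 h and -0.051 and 0.987 at 48 h. The 2 cholangiocyte markers evaluated, Sox9 and Spp1, had medians of 1.457 at 24 h and 0.968 at 48 h. The others listed, Krt19, Krt7 and Epcam, were under the minimum mean. Their ratios were 0.999, 1.41 and 1.87 at 24 h and 0.538, 0.219 and 0.612 at 48 h, each with an interval that held 1. At these counts it cannot be told whether they moved with Sox9 and Spp1.

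The sources used here do not state whether counting used strand, and 9 of the 34 genes overlap an annotated gene on the other strand. They are C1s1, C2, C8a, C8g, Cd55, Fcna, Hc, Masp1 and Masp2. Reads of such partners cannot be told apart, and this limit also holds for the ratios among the C8 chains and for Masp2 over Masp1.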

How the data were processed

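Hepatic RNA of 4 pools was analysed by MACE, 1 library per pool. The authors removed duplicate reads by unique molecular identifiers, trimmed low-quality bases with cutadapt, clipped poly(A) tails, mapped to mm10 (GRCm38) and deposited HTSeq read counts per gene, not normalized. The submitters' processing notes name HTSeq and DESeq2, with versions not given in the sources used here. The deposited table also holds counts scaled to library totals (RPM) and the authors' own log2 ratios, p-values and FDR, none of which were used. Of 27027 entries, 2414 name more than 1 gene.

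Counts were divided by DESeq2 1.42.0 median-of-ratios size factors (0.880, 0.933, 1.17 and 1.07), with edgeR 4.0.16 TMM as an alternative, in R 4.3.3. No DESeq2 or edgeR test was run, since each group has 1 library. Folds were computed in Python 3.11.15 with scipy 1.17.1, with a floor of 3 reads for calls, equal to 0.526 to 0.617 RPM, and no pseudocount. Fold intervals were derived by the Clopper-Pearson method from the APAP share of the reads in a pair of libraries and then rescaled by the size factors. Ratios of folds have conditional exact intervals from the 4 counts. Both were tested on simulated data. Unique identifiers were used, so counts are close to molecules, but intervals leave out differences between mice and pools.

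Gene positions are from GENCODE mouse release 21. Shared 3′ ends were searched by blastn 2.17.0 with the final 300 bases of each transcript, keeping matches of at least 90% identity over at least 100 bases. Promoter sequences are from RefSeq (GRCm38.p6). All 34 genes are named, and of other pathway genes those called at either time. Gm20547, C1s2, Crry-ps, Marco, Clec4f, S100a8, S100a9, F7 and the fibrinogen genes were named after their values were seen. So were Ccr2, Ly6c2, Trem2, Gpnmb, Csf1r, Adgre1, Sox9, Spp1, Krt19, Krt7 and Epcam. The genes and lists were chosen with earlier results of these data known. Alternatives were TMM, library totals, size factors from hepatocyte markers, a floor of 10 reads, a pseudocount of 1, other filters and thresholds, and the other or both control pools.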

Additional observations from a re-analysis of the deposited data

How the results depend on the processing

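Each group is 1 library of pooled RNA, so none of these settings shows how far mice differ. The number of complement genes at least 2-fold lower at 24 h was 2, and it was 1 with TMM, 1 with a pseudocount of 1, 1 among genes averaging 100 reads or more, 1 with the entry shared by Cfb and Gm20547 added to Cfb, 0 with library totals or hepatocyte-marker size factors, and 3 with the other control pool or the sum of both. At 48 h the number lower was 2, and 0 with library totals or hepatocyte-marker size factors. The number higher at 24 h was 2, and it was 1 with a floor of 10 reads or the other control pool and 0 at means of 50 or 100 reads or more. The number higher at 48 h was 2, 3 with library totals, and 0 at means of 50 or 100 reads or more. At a threshold of 1.5-fold 8 and 9 genes were lower, and at 5-fold 0 and 0 were lower and 1 and 1 higher. The settings with 100 reads and with the shared entry were chosen after seeing the data. Filters on reads evaluate fewer genes, and for the other settings the cause was not tested. Shares over all genes are given above for the main setting, for 1.5-fold and for genes averaging 100 reads or more. Under the remaining settings no share of all genes called was computed, so those counts have no background. Library totals moved the median of all genes up by 0.187 and 0.266 on the log2 scale, and hepatocyte-marker size factors by 0.286 and 0.139.

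The median log2 fold at 24 h, -0.258, moved to -0.071 with library totals and 0.028 with hepatocyte-marker size factors. The median at 48 h, -0.135, moved to 0.131 and 0.004 with these and to 0.055 with the other control pool. Of single folds 340 stayed within their counting interval under an alternative and 122 did not. Library totals moved 41 folds and kept 25, and hepatocyte-marker size factors moved 37 and kept 29. The other control pool moved 30 and kept 36, and the sum of both pools moved 12 and kept 54. All 66 stayed with TMM and with the pseudocount, and 64 with the floor of 10 reads. Of ratios of folds 119 stayed and 13 did not, 3 of these with library totals and 10 with the sum of both pools. No called fold turned direction. The scalings moved folds by at most 0.286 on the log2 scale and a pseudocount shrinks folds toward 1, so neither could have turned a call. No paired analysis was possible because each group has 1 library and the labels carry no replicate numbers.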
